A study of Neurospora crassa with 30 samples.

Results

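The 60 genes of *Neurospora crassa* described here are those whose expression level peaked in glycerol among 10 carbon sources. They were chosen from 9758 genes by a score that used the measured values. Counts of each library were divided by its total on genes to give counts per 1000000 reads (CPM), and the 3 replicates of each carbon source were averaged. The score is log2(mean in glycerol + 1) minus log2(highest mean among the 9 other carbon sources + 1), so a score of 1 is a 2-fold lead. Of 6691 genes with a glycerol mean of at least 10 CPM, 408 had a score above 0, and the 60 highest scores were taken.

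All 30 samples were mycelia of the wild type strain FGSC 2489, grown in sucrose for 16 hrs, washed, and exposed for 4 hrs under constant light to Vogel's minimal medium with a single carbon source. Glycerol, cellobiose, fructose, maltose, mannose, sorbose, trehalose and xylose were supplied at 2 mM, and the polysaccharides avicel (a microcrystalline cellulose) and xyloglucan were the others, with 3 biological replicates for each carbon source. No sample without a carbon source was used here, so each level is relative to the other carbon sources. RNA was sequenced and reads were counted per gene.

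Glycerol is a 3-carbon polyol that fungi take up through the plasma membrane. It can be phosphorylated and then oxidized by glycerol-3-phosphate dehydrogenase, or oxidized first by glycerol dehydrogenase and then phosphorylated by dihydroxyacetone kinase, and both routes yield dihydroxyacetone phosphate. This triose phosphate enters glycolysis, or is built up to hexose through fructose-1,6-bisphosphatase, an enzyme of gluconeogenesis. *N. crassa* uses glycerol poorly in comparison with its preferred sugars.

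Between 13018483 and 21925749 reads were counted on genes per library, and between 13671368 and 15671808 in the 3 glycerol libraries. The 60 genes took 1.86% to 2.10% of these reads in glycerol and 0.427% to 0.910% in the 27 other libraries, without overlap. The choice of the genes requires a higher mean share in glycerol, so nothing is concluded from it. A few genes carried most of this share. NCU06005, NCU02097, NCU09210, NCU07159 and NCU05454 together held 58.4% of the members' reads in glycerol (not corrected for gene length), and NCU06005 alone 19.99%. Of 6 genes on a list for conidiation, the formation of asexual spores, 1 is given here as an example. The list is described below, with *con-10* lower in glycerol and no gene called higher. The hydrophobin gene *eas* (NCU08457) stood at 12862 ± 2185 CPM in glycerol (SD, n = 3) and between 826 and 24884 CPM in the other libraries.

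The lead of glycerol was small for most members. The score fell from 1.86 (3.62-fold) at the first rank to a median of 0.48 (1.39-fold) and 0.28 (1.22-fold) at the last, and 9 members had a score above 1. Computed for each carbon source in turn, the same score was above 1 for 84 genes in avicel, 48 in cellobiose, 46 in sorbose, 25 in trehalose, 17 in maltose, 13 in xylose, 10 in mannose, 10 in xyloglucan and 3 in fructose. In 27 of the 60 members all 3 glycerol libraries stood above all 27 others, against 0.671% of the 8501 genes tested, and in 33 the libraries overlapped. Both counts describe the choice of the members and test nothing. The threshold separated very similar genes. NCU04206, NCU08772 and NCU06180 were the last taken, with scores of 0.29, 0.29 and 0.28, and NCU07761, NCU01167 and NCU08425 were the first left out, with 0.28, 0.28 and 0.27.

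**Figure D1:**
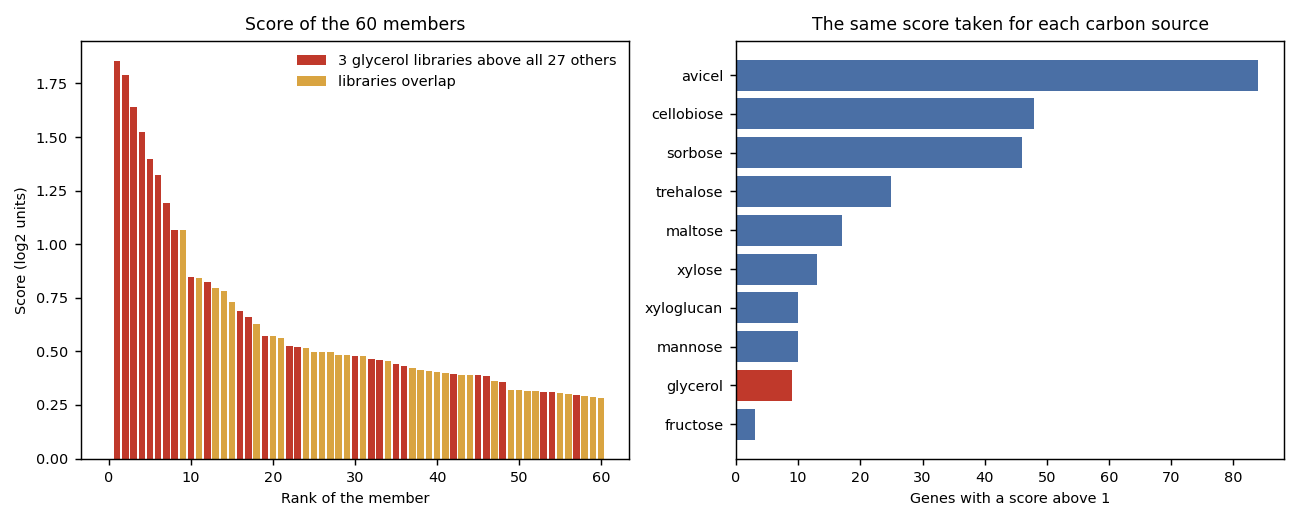
Left, score of the 60 members in log2 units against rank, coloured by whether the 3 glycerol libraries stood above the 27 others (27 members) or overlapped with them (33 members). Right, number of genes with a score above 1 when each carbon source in turn takes the place of glycerol, with 9 in glycerol and 84 in avicel.

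The score was highest for NCU05454, annotated as a glycerol-3-phosphate dehydrogenase and located on chromosome II from 1650714 to 1654419 (assembly NC12). Its levels were 1633, 1663 and 1567 CPM in the 3 glycerol replicates. The other 27 libraries ran from 142 to 521 CPM with a median of 274, so the groups did not overlap. Fructose followed with 447 ± 74.2 CPM (SD, n = 3) and maltose was lowest with 157 ± 12.9, which places glycerol 3.63-fold above the next carbon source and 10.3-fold above the lowest. In bulk mycelia, fewer cells expressing a gene and less RNA per cell cannot be told apart. NCU05454 was the only member on the list of glycerol metabolism genes described below.

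NCU06005 and its neighbour *stk-37* (NCU06006), which encodes a serine/threonine protein kinase, had ranks 4 and 5. NCU06005 has no product name in the annotation used here. It was at 3952, 4264 and 3840.3 CPM in glycerol, followed by sorbose with 1576, 1372 and 1246 CPM. In cellobiose it was at 47.1, 69.6 and 48.0 CPM, 73.2-fold under glycerol on the means. The glycerol libraries of NCU06005 thus stood well apart, sorbose was intermediate, and cellobiose and trehalose (85.3 ± 8.24 CPM, SD, n = 3) were at the bottom. *stk-37* had a smaller range, with 68.3, 76.0 and 71.0 CPM in glycerol, 26.6 ± 1.05 in sorbose and 8.12 ± 0.145 in cellobiose (SD, n = 3). Over the means of the 9 other carbon sources, which the score used only through the highest, the log2 levels of both genes had a Pearson correlation of 0.94 and a Spearman correlation of 0.97. Over the same means NCU06005 and NCU05454 had 0.15 and 0.10. These are descriptions over 9 points that share the same libraries.

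The neighbourhood of both genes on chromosome VI held 2 more members. The stretch from 3102539 to 3143845, 41307 bases with 12 genes, included *stk-37*, NCU06005, NCU06001 and NCU05996. The annotation gives no function for the last 2. NCU06001 was at 262, 229 and 309 CPM in glycerol and its highest other library, maltose replicate 2, was at 273, within that range. NCU05996 was at 967, 836 and 1013 CPM, above the highest other library at 821. The genes between them did not all share the lead. NCU06003 was at 562 ± 30.9 CPM in glycerol and 674 in trehalose, NCU05999 at 117 ± 7.89 in glycerol and 133 in xylose, and 4 genes were under 10 CPM in glycerol. At the edge of the stretch, NCU06009, annotated as an oxidoreductase, missed the threshold at rank 64 with 199 ± 27.5 CPM in glycerol and 166 in sorbose. NCU06007 and NCU06008 overlap on the chromosome, so the split of reads between them is uncertain.

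**Figure D2:**
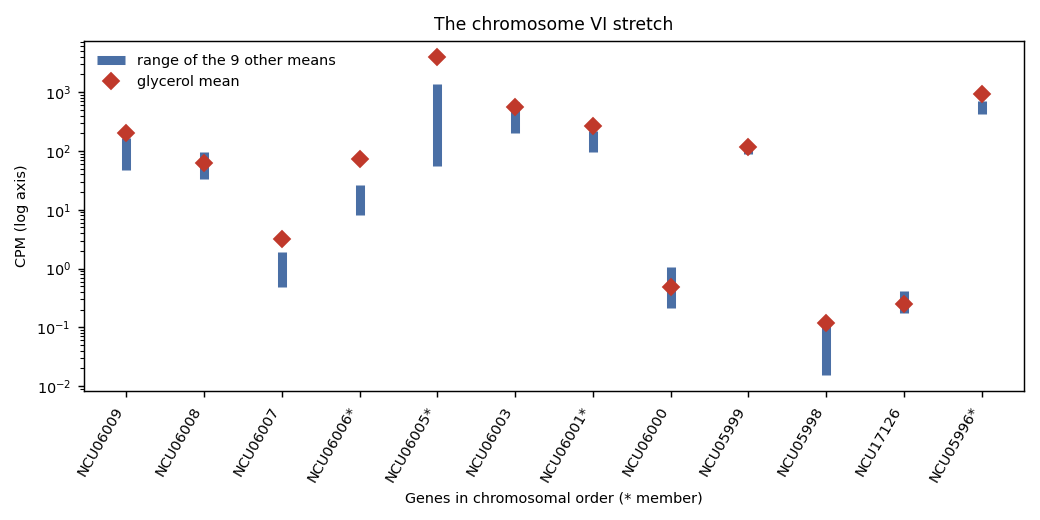
Mean CPM (log axis) of the 12 genes of the chromosome VI stretch in chromosomal order, members marked with an asterisk. Diamonds are glycerol means and bars the range of the 9 other means (n = 3 each), and the diamond of NCU06005 stands at 4019 CPM over a bar that ends at 1398.

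NCU07740 and NCU02097 had ranks 2 and 3. NCU02097, a gene without annotation on chromosome I, was at 2199, 2662 and 2265 CPM in glycerol and 761 ± 95.1 in xyloglucan (SD, n = 3), with the lowest values in cellobiose (36.1, 110 and 81.5 CPM) and trehalose (134, 112 and 173). NCU07740 belongs to the major facilitator superfamily, a large family of membrane transporters for sugars and other small molecules. Its levels were 35.8, 37.4 and 50.3 CPM in glycerol. Its second-highest mean, 11.2 CPM in maltose, rested on maltose replicate 2 at 21.1 CPM, the others being at 6.70 and 5.83. Neither gene had a library outside glycerol that reached the glycerol range.

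The other members with a score above 1 were NCU00717, NCU08347, NCU06083 and NCU00848. NCU00717, annotated as a membrane protein with a domain of unknown function, was at 17.6, 21.9 and 18.0 CPM in glycerol and between 3.75 and 7.05 CPM on the means of the other carbon sources. NCU08347 was at 46.1, 51.7 and 54.3 CPM, against 21.7 ± 2.30 in cellobiose (SD, n = 3). NCU06083 was at 122, 113 and 137 CPM, against 58.7 ± 4.25 in avicel. In these 3 genes glycerol and the other libraries did not overlap. NCU00848, named for TmpA, a membrane flavoprotein known from conidiation in *Aspergillus nidulans*, was different, with 123.1, 71.0 and 102 CPM in glycerol and 84.8 and 78.2 CPM in maltose replicate 2 and xylose replicate 1. It was at 3.82 ± 0.847 CPM in sorbose, 25.8-fold under glycerol.

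**Figure D3:**
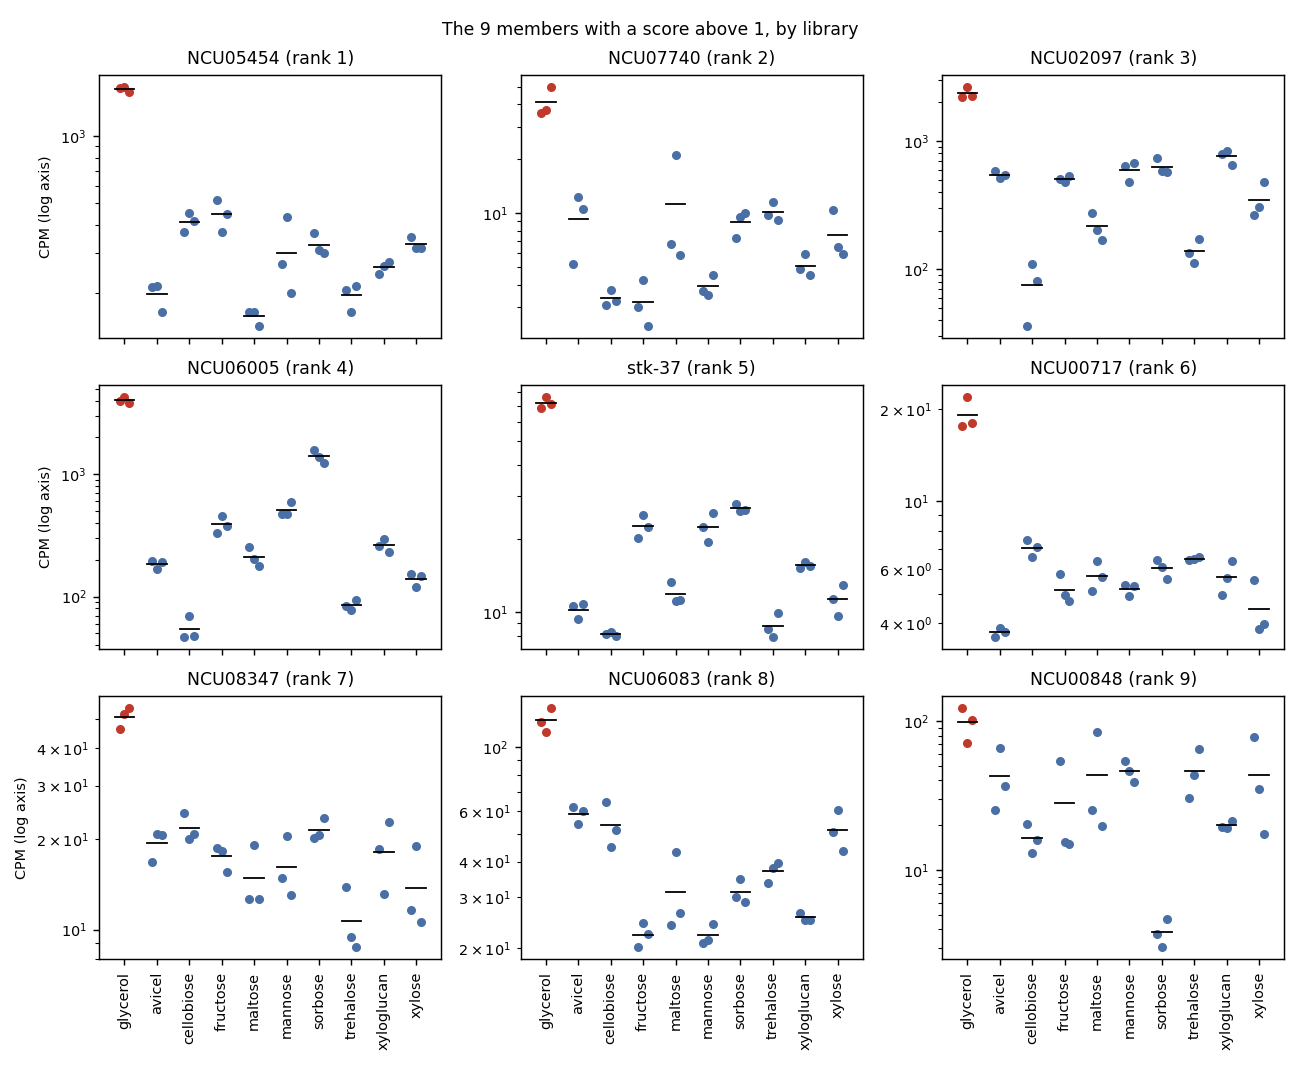
CPM (log axis) of the 9 members with a score above 1 in all 30 libraries, by carbon source. Points are libraries, lines are means of 3, and glycerol (red) is separated from all other libraries in every panel but that of NCU00848, where maltose replicate 2 reached 84.8 CPM.

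Transporters of inorganic ions were among the members. The genes *pho-4* (NCU09564) and *pho-5* (NCU08325) encode high-affinity phosphate permeases, which in *N. crassa* are known to be made when phosphate is scarce. *pho-4* was at 79.4, 67.6 and 64.8 CPM in glycerol, 39.5 ± 1.40 in sorbose (SD, n = 3) and 3.80, 4.97 and 1.85 in avicel. *pho-5* was at 305, 306 and 256 CPM in glycerol, 178, 287 and 168 in trehalose and 0.639, 0.922 and 1.76 in xyloglucan, a 261-fold range of means, the widest among the members. Glycerol and the other libraries did not overlap for *pho-4* and overlapped at trehalose replicate 2 for *pho-5*. Replicates outside glycerol differed strongly in both genes. In mannose *pho-5* was at 1.26, 29.2 and 0.582 CPM and *pho-4* at 2.01, 14.0 and 1.00, with replicate 2 high in both, and in xylose both were highest in replicate 1 (193 and 60.3 CPM) and lowest in replicate 3 (37.3 and 7.98 CPM). *cys-14* (NCU04433), which encodes sulfate permease II, was at 99.8, 97.2 and 79.2 CPM in glycerol, and xylose replicate 1, at 80.8, lay within that range.

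Further members belonged to families of transporters. NCU00803 of the major facilitator superfamily was at 54.5, 59.6 and 49.2 CPM in glycerol and 33.4 ± 1.82 in avicel (SD, n = 3), without overlap. NCU09069 of the same superfamily was at 14.7, 17.4 and 15.3 CPM and reached 13.2 CPM in sorbose replicate 3. NCU01735, placed in the microbial rhodopsin family of light-driven ion pumps and sensors, was at 28.8, 23.8 and 18.4 CPM, and cellobiose replicate 1 was above these at 29.96. Of these genes only NCU01735 had glycerol values within the range of the other libraries.

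Hydrolases were encoded by NCU07159, NCU07536 and *gh13-6*. NCU07159, annotated as proteinase T, a secreted serine protease of the subtilisin family, was at 2072, 2546 and 629 CPM in glycerol, and NCU07536, a carboxypeptidase, at 46.2, 55.8 and 15.2. Glycerol replicate 3 was low in both genes and lay below the xyloglucan means of 1009 and 22.02 CPM. The place of both proteases among the members thus rested on 2 glycerol libraries. *gh13-6* (NCU05873), an alpha-amylase of starch breakdown, was even between replicates with 110.1, 124 and 114 CPM in glycerol, 88.4 ± 20.9 in avicel, 88.3 ± 10.6 in sorbose and 84.5 ± 14.5 in trehalose (SD, n = 3). Avicel replicate 3, at 112 CPM, overlapped with its glycerol values.

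Members with other enzymatic functions included oxidoreductases and synthases. NCU03651, an NADP-dependent malic enzyme, which makes pyruvate and NADPH from malate, was at 301, 246 and 220.3 CPM in glycerol, but trehalose replicate 2 was higher at 359 (129 and 128 in the other trehalose replicates), and fructose was lowest at 19.0 ± 1.90 (SD, n = 3). NCU05094, a short chain dehydrogenase/reductase, was at 46.0, 64.8 and 45.2 CPM in glycerol and 41.5 ± 7.54 in xyloglucan. NCU05986, a protein with a sucrase/ferredoxin domain, was at 17.3, 28.6 and 17.4 CPM in glycerol, with 14.9 ± 2.58 in xyloglucan. Among these 3 genes only NCU05986 had no overlap.

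A glycosyltransferase and enzymes of storage sugars and secondary metabolism were also among the members. NCU05138, in glycosyltransferase family GT25, was at 13.9, 20.04 and 18.9 CPM in glycerol and 9.36 ± 2.00 in cellobiose (SD, n = 3), without overlap. *ccg-9* (NCU09559), a clock-controlled gene for trehalose synthase, was at 147, 166 and 168 CPM in glycerol and 182 in xyloglucan replicate 3. *pks-3* (NCU04865), a polyketide synthase, was at 195, 97.2 and 151 CPM in glycerol and 151, 112 and 66.3 in xylose. Glycerol overlapped with other carbon sources in *ccg-9* and *pks-3*.

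Regulatory members included transcription factors and cell cycle genes. NCU07379, a transcription factor of the bZIP class, was at 220.2, 260 and 235 CPM in glycerol and 150.2 ± 15.6 in xylose (SD, n = 3), and NCU00805, another bZIP factor, was at 395, 360 and 376 in glycerol and 286 ± 8.51 in avicel. Both were above all 27 other libraries, although their leads were 1.59-fold and 1.32-fold. NCU02114, annotated as the G1/S cyclin Cln1, which acts at entry into the cell cycle, was at 412, 480.2 and 419 CPM in glycerol and 352 ± 21.99 in xylose, also without overlap. NCU08772, a component of a cyclin-dependent kinase complex, was at 173, 160.5 and 206 CPM and overlapped with mannose replicate 3 at 168.

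Several members differed strongly between replicates. NCU09734 was at 182, 42.4 and 90.8 CPM in glycerol, 27.3, 112 and 12.3 in maltose and 115, 14.3 and 9.07 in xylose. NCU07948 was at 88.4, 47.5 and 75.9 CPM in glycerol and 33.6, 75.2 and 27.9 in maltose, and NCU01873 at 157, 450.0 and 219 in glycerol and 209 ± 5.98 in cellobiose (SD, n = 3). In these genes glycerol overlapped with other carbon sources. The 9 others still differed from each other in each gene, in the edgeR test described below. The adjusted p was 5.77e-03 for NCU09734, 6.45e-05 for NCU07948 and 1.25e-07 for NCU01873. Glycerol replicates lay within 1.5-fold of each other in 42 members and over 2-fold apart in 6. Outside glycerol, maltose replicate 2 was the highest library for 8 members and xylose replicate 1 for 7, counts for which no share over all genes was taken. The share of reads outside genes was 6.05% in maltose replicate 2 against 2.56% and 4.06% in the other maltose replicates, and 2.64% in xylose replicate 1 against 4.55% and 3.86%. Replicate 1 also had the lowest share in fructose, glycerol, maltose, mannose, sorbose and trehalose. The part of these shares in the result was not tested.

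The remaining members named by symbol or product had leads under 1.5-fold. *hsp30* (NCU09364), a small heat shock protein, was at 69.1, 39.8 and 63.3 CPM in glycerol and 41.0 ± 5.68 in maltose (SD, n = 3), and overlapped. NCU01403, a GPI anchored protein, was at 28.9, 30.2 and 36.2 CPM, above the highest other library at 24.5. NCU06986, with a DUF221 domain, was at 1134, 566 and 883 CPM in glycerol and reached 891 in maltose replicate 2. Of the top 20 members, NCU07222 (45.6, 86.0 and 55.4 CPM in glycerol, 37.1 ± 6.92 in cellobiose) overlapped at xylose replicate 2 with 51.3 CPM, and NCU08057 (52.2, 38.9 and 37.4 CPM in glycerol, 28.5 ± 0.886 in fructose) did not overlap.

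Members shared little in annotation. A product name was given for 22 of 60, 20 were hypothetical proteins, and 18 had no annotation text in the tables used here, which cover 4397 genes. Their median length from start to end was 2353 bases, against 2127 for all genes. By chromosome 18 lay on I, 2 on II, 6 on III, 11 on IV, 8 on V, 9 on VI and 6 on VII. Another member lay within 5 genes of 18 members, in 8 stretches. Neither these counts nor those by chromosome were set against other genes, so they do not show clustering. The 4 pairs of direct neighbours differed in how alike their levels were across the 9 other carbon sources. NCU09209 and NCU09210 on chromosome I had a Pearson correlation of 0.97 over these means, as a description, while NCU00848 and NCU00849 had 0.09 and *hsp30* and NCU09365 0.29. The pair NCU00803 and NCU00805, with a gene between them, had 0.96.

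NCU09209 and NCU09210, neither of them annotated, were read mostly in a few carbon sources. NCU09209 was at 1707, 945 and 1286 CPM in glycerol, 930.0 ± 187 in xylose, 846 ± 388 in maltose and 656 ± 266 in trehalose (SD, n = 3). NCU09210 was at 2109, 1690 and 2015 CPM in glycerol, 1573 ± 56.6 in xylose, 1427 ± 665 in maltose and 1112 ± 361 in trehalose. In xyloglucan they were at 103 ± 19.0 and 269 ± 52.9 CPM. Glycerol, xylose, maltose and trehalose were thus the 4 highest carbon sources for both, and maltose replicate 3 overlapped with glycerol in each. For NCU09209 it was not the only library to do so, since maltose replicate 2 was at 965 CPM.

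The carbon source next to glycerol was not the same for all members. Cellobiose and xylose came second for 9 members each, sorbose for 8, fructose and avicel for 7 each, trehalose and xyloglucan for 6 each, maltose for 5 and mannose for 3. Among the 9 carbon sources other than glycerol, xylose had the highest mean in 9 of 60 members and in 4.84% of the genes with a glycerol mean of at least 10 CPM. For cellobiose that share of genes was 11.8%, for trehalose 17.2% and for mannose 11.4%. It lay between 9.58% and 12.5% for the remaining carbon sources. The score used this highest mean, and the differences were not tested. Cellobiose was lowest for 18 of 60 members and for 26.0% of those genes. Glycerol was at least 10-fold above the lowest carbon source in 14 members, and the median was 4.61-fold.

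**Figure D4:**
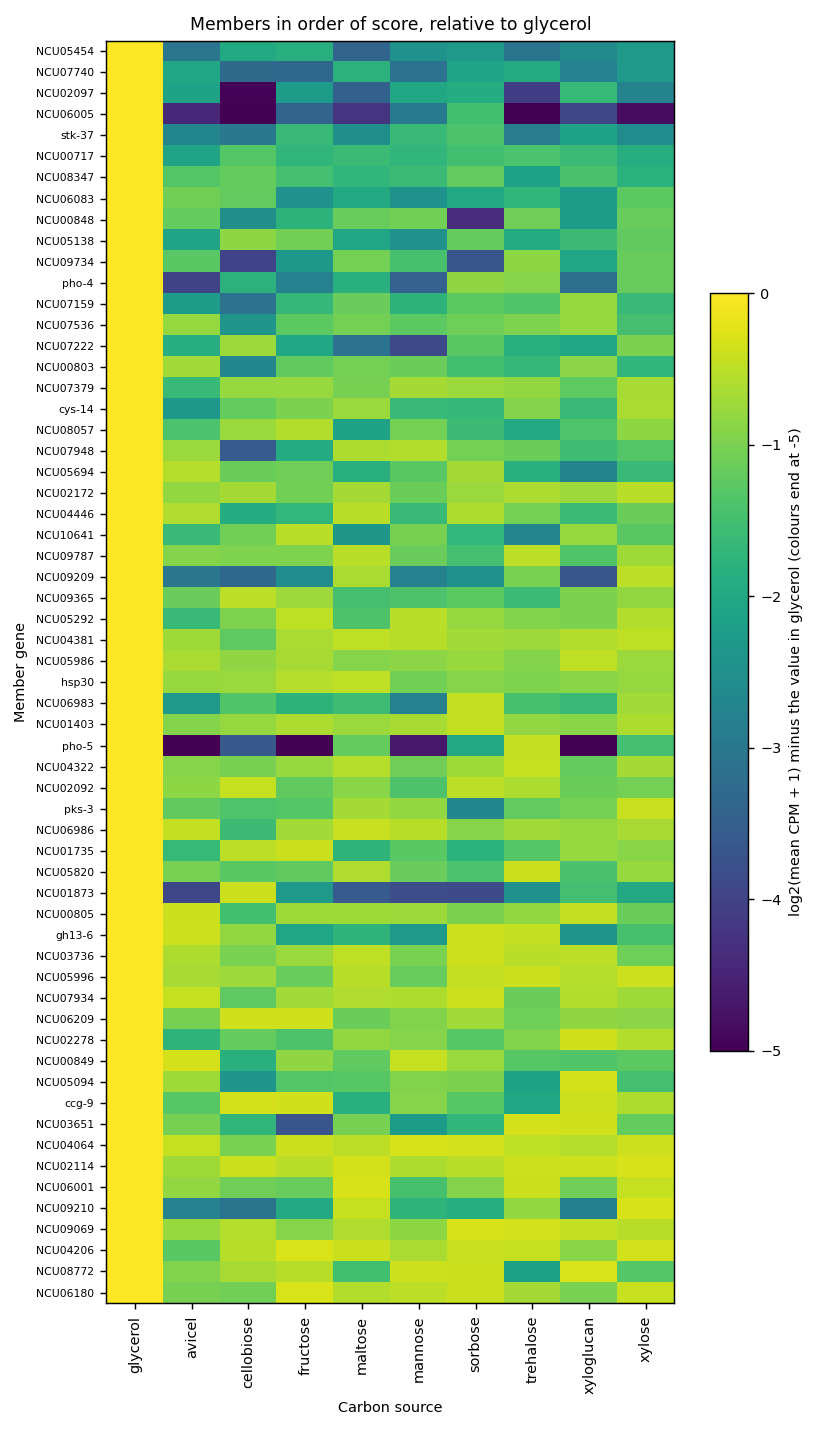
Mean level of the 60 members (rows, in order of score) in each of the 10 carbon sources, as log2(mean CPM + 1) minus the value in glycerol, with colours ending at -5. Every row is highest in glycerol by the choice of the genes, and the second and lowest carbon sources vary between rows.

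Levels in the carbon sources other than glycerol were compared next. These comparisons contain no glycerol sample, and the score used these carbon sources only through the highest mean. Genes were called higher or lower at a fold change over 2 and an adjusted p under 0.01 in the quasi-likelihood test of edgeR, fitted to all 30 libraries, with p-values adjusted over the 8501 genes by the Benjamini-Hochberg method. Fold changes are on the log2 scale with their standard errors (SE). The 9 other carbon sources differed from each other in 52 of 60 members (86.7%), against 92.8% of all genes tested. The score kept the highest of these 9 means low relative to glycerol, and the genes tested had no minimum glycerol mean. The lower share among members may thus come from their choice, and nothing is concluded from it. The 8 members not called were NCU07159 (adjusted p = 0.197), NCU07536, NCU04381, NCU05986, *hsp30*, NCU01403, NCU06986 and NCU04206. Glycerol replicates of both proteases and NCU06986 lay far apart, but the glycerol mean is not among the 9 means compared. Whether the spread of replicates had a part in these 8 results was not tested.

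Between the polysaccharides, avicel and xyloglucan, and the 7 soluble sugars, 2 members were higher (4.75% of all genes tested were) and 4 were lower (3.71% of all genes). The median log2 fold change of the members was -0.07, against 0.00 for all genes. The unannotated NCU02097 was higher on polysaccharides, with a log2 fold change of 1.15 (SE 0.14, adjusted p = 1.85e-07), and so was the short chain dehydrogenase NCU05094, with 1.01 (SE 0.07, adjusted p = 2.97e-11). The second call lay at the threshold. It was lost without avicel replicate 3 (0.98), trehalose replicate 2 (0.99) or xyloglucan replicate 1 (0.94), and without avicel replicate 3 or xyloglucan replicate 1 only 1 member was called higher.

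The members lower on polysaccharides were both phosphate permeases and both neighbours on chromosome I. *pho-5* was lower by a log2 fold change of -5.14 (SE 0.62, adjusted p = 1.33e-07) and *pho-4* by -1.99 (SE 0.43, adjusted p = 2.93e-04). Replicates of *pho-5* did not overlap between polysaccharides (0.639 to 1.77 CPM) and 6 of the 7 soluble sources, but the 2 low mannose replicates lay at the level of the polysaccharides. NCU09209 had a log2 fold change of -1.49 (SE 0.29, adjusted p = 1.18e-04) and NCU09210 of -1.39 (SE 0.26, adjusted p = 5.98e-05). With so few members called, the shares of 3.33% higher and 6.67% lower differ from the background by a few genes only.

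Avicel was compared with fructose, a preferred hexose. Of the members 5 were higher in avicel (8.87% of all genes were) and 9 were lower (6.38%). The largest increases were those of the malic enzyme NCU03651, with a log2 fold change of 2.79 (SE 0.58, adjusted p = 2.79e-04), *gh13-6* with 1.75 (SE 0.18, adjusted p = 2.01e-08) and the transporter NCU07740 with 1.57 (SE 0.37, adjusted p = 1.04e-03). NCU06083 and NCU04446 were the others. Leading members in glycerol were among the decreases. The glycerol-3-phosphate dehydrogenase NCU05454 was lower in avicel by -1.14 (SE 0.19, adjusted p = 2.28e-05), *stk-37* by -1.08 (SE 0.11, adjusted p = 3.72e-08) and NCU06005 by -1.01 (SE 0.16, adjusted p = 1.08e-05). The sulfate permease *cys-14*, NCU05138, NCU10641, NCU05292, NCU01735 and NCU01873 were also lower.

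Several of these decreases depended on single libraries. Without fructose replicate 1 the members lower in avicel numbered 5 in place of 9, with NCU05454 at -0.99 and *cys-14* at -0.87, under the fold threshold. NCU05138 was at -0.79 in the same fit, and its call was also lost with only the groups compared. *stk-37* was at -0.99 without avicel replicate 2. NCU06005 was at -0.99 by DESeq2, and its call was lost in 2 of the 30 fits without a library, with -0.91 without fructose replicate 2. The call of NCU01873 was lost in 6 of these fits and with only the groups compared, that of NCU10641 in 2 and that of NCU01735 in 1. The 5 increases kept their calls in all of these fits.

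Sorbose, a hexose that *N. crassa* uses poorly, was compared with the same fructose samples, so both comparisons share them. Of the members 7 were higher in sorbose (8.22% of all genes were) and 6 were lower (6.88%). *pho-5* had a log2 fold change of 4.16 (SE 0.79, adjusted p = 1.05e-04), NCU03651 of 1.98 (SE 0.56, adjusted p = 5.00e-03), NCU06005 of 1.81 (SE 0.16, adjusted p = 3.12e-09) and *gh13-6* of 1.65 (SE 0.18, adjusted p = 5.02e-08), and NCU07740, NCU04446 and NCU06983 were higher as well. *stk-37* was not called, with 0.21 (SE 0.11, adjusted p = 0.119). The membrane protein gene NCU00848 was lower in sorbose by -2.95 (SE 0.63, adjusted p = 3.53e-04), and NCU08057, NCU10641, *pks-3*, NCU01735 and NCU01873 were the other decreases. Without fructose replicate 1 the members lower in sorbose numbered 3 in place of 6, and *pks-3* was at -0.75 in place of -1.46. The call of *pks-3* was also lost with only the groups compared and in 3 of the 30 fits without a library. NCU01873 lost its call in 11 of these fits, NCU03651 in 5, NCU07740 in 3 and NCU10641 in 1.

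Glycerol was set against the mean of the 9 other carbon sources to ask which other genes of related pathways moved. This contrast is close to the score, so for members it is only described. The fit called 35 of 60 members higher, and 3.34% of all genes tested were called higher and 1.75% lower. Genes of 6 lists that were not members were tested. The lists were built from the annotation text and symbols, so genes without either were not found, and no glycerol kinase gene was on them.

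A gene of glycerol metabolism with a lead like that of NCU05454 would be a member, so the lack of such a lead among the others follows from the choice. The contrast with the mean could still call them. Of the 5 genes tested on this list, none was called higher by edgeR or DESeq2 and 1 was lower. At an unadjusted p under 0.05, 2 were up and 2 down. *gcy-1* (NCU04923), a glycerol dehydrogenase, was at 128, 67.6 and 103 CPM in glycerol and 51.7 to 527 CPM elsewhere (median 251), with a log2 fold change of -1.02 (SE 0.20, adjusted p = 2.62e-04). This call was lost with library size scaling (-0.96) and in 4 of the 30 fits without a library. *gcy-3* (NCU04510), a related dehydrogenase, was at -0.69 (SE 0.16, adjusted p = 1.47e-03), under the fold threshold. The dihydroxyacetone kinase gene *dak-1* (NCU03779) was at 501, 786 and 620.3 CPM in glycerol, with a log2 fold change of -0.17 (SE 0.15, adjusted p = 0.382). The glycerol:H+ symporter NCU02591 was at 0.21 (SE 0.07, adjusted p = 0.0111) and the aquaporin NCU08052 at 0.43 (SE 0.14, adjusted p = 0.0140). All 5 overlapped with the other libraries.

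Of the genes of gluconeogenesis, *acu-6* and *fbp-1* were higher in glycerol than in the mean of the others, but not than in each of them. *acu-6* (NCU09873), which encodes phosphoenolpyruvate carboxykinase, was at 2193, 1199 and 1983 CPM in glycerol, with a log2 fold change of 1.90 (SE 0.20, adjusted p = 9.51e-08). *fbp-1* (NCU04797), which encodes fructose-1,6-bisphosphatase, was at 749, 614 and 766 CPM, with 1.29 (SE 0.18, adjusted p = 4.70e-06). Neither peaked in glycerol, since *acu-6* was highest in xyloglucan (3227 ± 883 CPM, SD, n = 3) and *fbp-1* in fructose (805 ± 193). For *fbp-1* xyloglucan (803 CPM) and mannose (735 CPM) also stood above glycerol, which had rank 4 among 10. Both genes overlapped with the other libraries, which ran from 42.8 to 4169 CPM for *acu-6* and from 60.3 to 1267 CPM for *fbp-1*. None of the 6 genes on this list was lower by either tool, or at an unadjusted p under 0.05, and the median log2 fold change was 0.48, against 0.01 for all genes.

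The glyoxylate cycle and acetate genes on that list were not called. *acu-9* (NCU10007), for malate synthase, was at 0.86 (SE 0.22, adjusted p = 3.60e-03) and *acu-3* (NCU04230), for isocitrate lyase, at -0.46 (SE 0.50, adjusted p = 0.495). *acu-3* had very unequal replicates in mannose, where its SD exceeded its mean. *acu-5* (NCU06836), for acetyl-CoA synthetase, was at 0.10 (SE 0.29, adjusted p = 0.809) and *acu-8* (NCU09770) at -0.03 (SE 0.39, adjusted p = 0.958), a sign that other settings turned.

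**Figure D5:**
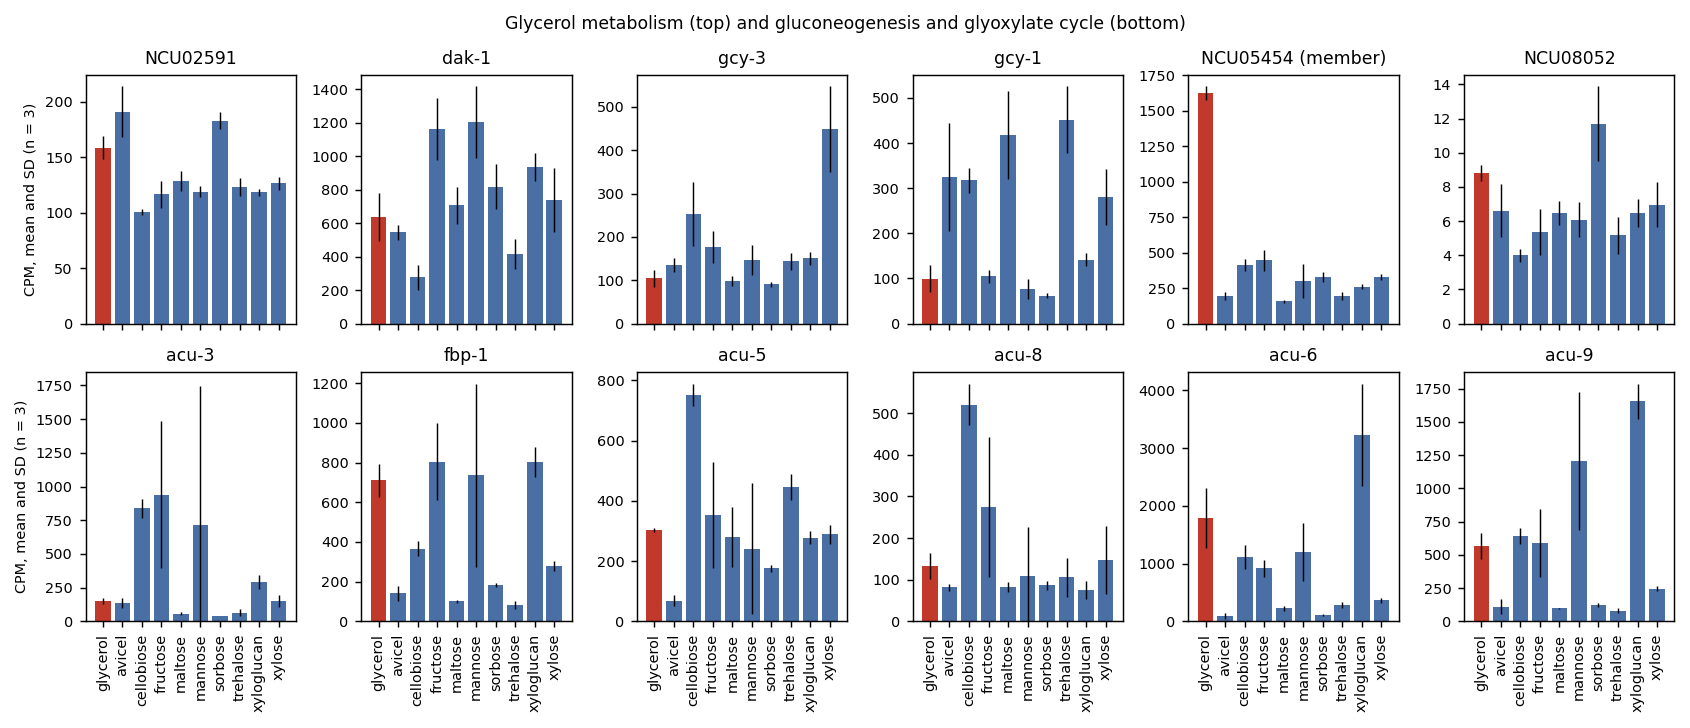
Mean CPM and SD (n = 3, lower ends cut at 0) of the glycerol metabolism genes (top) and the gluconeogenesis and glyoxylate cycle genes (bottom) in 10 carbon sources, glycerol in red. NCU05454 is highest in glycerol at 1621 CPM, while *acu-6* is highest in xyloglucan at 3227 and *fbp-1* in fructose at 805.

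Other lists held few calls. Of 16 genes annotated as sugar transporters, including a nucleotide-sugar transporter, 4 were lower in glycerol and none was higher by edgeR or DESeq2, with 6 up and 7 down at an unadjusted p under 0.05. The cellodextrin transporter gene *cdt-2* (NCU08114) was at 41.2, 42.7 and 41.4 CPM in glycerol, with a log2 fold change of -2.39 (SE 0.21, adjusted p = 4.11e-09). The high-affinity glucose transporter genes NCU08152 and *hgt-1* (NCU10021) were lower by -1.30 (SE 0.28, adjusted p = 6.60e-04) and -1.27 (SE 0.17, adjusted p = 2.62e-06). *xyt-1* (NCU05627), named after its value was seen, was the other with -1.15 (SE 0.31, adjusted p = 5.10e-03), a call lost without glycerol replicate 2 (-0.92, adjusted p = 0.056). The call of NCU08152 was also lost without that library.

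Genes of fatty acid oxidation and peroxisomes held 1 call among 35, NCU05518, which was lower by -1.09 (SE 0.17, adjusted p = 1.42e-05). None was higher by edgeR or DESeq2, with 3 up and 6 down at an unadjusted p under 0.05. Of 29 genes of the respiratory chain none was called in either direction by edgeR or DESeq2, with 6 up and 2 down at an unadjusted p under 0.05, and their median was 0.01. Among 6 conidiation genes, *con-10* (NCU07325) was lower with -1.37 (SE 0.26, adjusted p = 1.89e-04) and none was higher by either tool, with 2 up and 1 down at an unadjusted p under 0.05. *eas* was at 0.68 (SE 0.21, adjusted p = 0.0107), and *fl* (NCU08726), a regulator of conidiation, at 0.56 (SE 0.10, adjusted p = 1.36e-04), under the fold threshold.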

How the data were processed

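Messenger RNA of 30 wild type samples, 10 carbon sources with 3 biological replicates each, was sequenced by the authors. Per the labels and the study's methods, they filtered reads by base quality, mapped them with TopHat 2.0.4 to transcripts predicted from the OR74A genome and counted them with HTSeq 0.6.0, and the deposited values are raw counts per gene without normalization. Reads mapped to several places (0.217% to 6.05% of a library) and reads outside genes (2.43% to 8.79%) are in no gene's count and were left out of library totals. The same holds for reads that matched more than 1 gene (1.44% to 2.14%). Whether strand was used in counting is not given in the sources used here. Totals on genes ran from 13018483 to 21925749 per library. Their number limits the precision of low genes, and intervals were taken from replicates.

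CPM were computed from these counts without further scaling. Positions, lengths and symbols came from the RefSeq table of assembly NC12, in which 9757 of 9758 genes matched, and product text from the study's supplementary tables (4397 genes). Tests used edgeR 4.0.16 in R 4.3.3 (filterByExpr, 8501 genes kept, TMM factors from 0.893 to 1.06, quasi-likelihood fit of 30 libraries with a mean per carbon source), with a call at over 2-fold and an adjusted p under 0.01 as in the study, which used DESeq2. Alternatives were DESeq2 1.42.0, library size only, no low-count filter, the replicate number as a block, only the groups compared, and leaving out each of the 30 libraries. Membership was recomputed with TMM-normalized CPM, pseudocounts of 0.5 and 5, and without each replicate number. The fit was tested on simulated data. Members, lists and comparisons were chosen with earlier results of these data known. Members named are the 20 highest scores, those with a symbol or product, chromosomal neighbours, and those at the threshold. On the lists of glycerol metabolism and gluconeogenesis all genes are named, and on others at most 3 of the largest changes. Replicate pairs differed by more than sampling noise (chi-square per degree of freedom of at least 5.36). The largest values were those of mannose replicate 2, with 147 against replicate 1 and 224 against replicate 3. Mannose replicates 1 and 3 had 40.0. This library is also the one in which *pho-4* and *pho-5* were high in mannose.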

Additional observations from a re-analysis of the deposited data

How the results depend on the processing

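Of the 60 members, 54 were kept with TMM-normalized CPM, 59 and 57 with pseudocounts of 0.5 and 5, and 46 to 50 when replicate 1, 2 or 3 was left out of every carbon source. All of the 10 highest scores were kept under each of these settings, and 56 members were highest in glycerol under all of them. The exceptions were NCU06986, NCU01873, NCU00849 and NCU03651. Of the 20 highest scores, 16, 14 and 19 stayed among the 20 highest without replicate 1, 2 and 3. Single scores below the 10 highest moved far. NCU09734 fell from 0.84 to 0.035 without replicate 1, and NCU07948 from 0.57 to 0.17 without replicate 3. Of 1733 refits of single genes, 1671 kept the call, 54 lost it, 1 gained it (*acu-9* without glycerol replicate 2) and 7 turned the sign, all of *acu-8*. *acu-8* was at 0.032 with library size only and between -0.17 and 0.16 when libraries were left out. The call of *gcy-1*, the single lower gene of glycerol metabolism, gave 0 with library size only and 0 to 1 without a library (0 without avicel replicate 2, glycerol replicate 2, maltose replicate 2 or xylose replicate 1). Members higher on polysaccharides numbered 1 to 3 without a library, members lower in avicel than fructose 5 to 9, and members lower in sorbose than fructose 3 to 7. The cause was not tested. Members higher on polysaccharides were 3 with DESeq2, 3 with library size only and 3 with the replicate block.

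Gene levels gave little sign of a pairing by replicate number, but the share of reads outside genes followed that number in part. Libraries with the same number had a mean correlation of 0.07 in their deviations from the group means (from -0.33 to 0.51). Libraries with other numbers had -0.04. Of 135 same-number pairs 52 were over 0.1, and 11 of 30 libraries correlated best with their own number. The share outside genes was lowest in replicate 1 in fructose, glycerol (2.75% against 5.34% and 4.39%), maltose, mannose, sorbose, trehalose and xylose. In avicel, cellobiose and xyloglucan it was not. Whether samples of the same number were handled together was not tested. With a replicate block, the fit called 284 genes higher and 149 lower in glycerol, 760 higher and 540 lower in avicel than fructose, 703 and 578 in sorbose than fructose, and 410 and 311 on polysaccharides. No call of a named gene was lost with it. Depth limits the precision of members with low values, such as *pho-5* in xyloglucan, and with 3 libraries per carbon source the libraries overlapped in 33 members.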
